A study of Zea mays with 16 samples.

Results

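MuDR is the transposable element that drives the Mutator family of maize, and 4 of the 39174 target names on the array carry its name, with 1 probe each among 42034 probes that are not control spots. They were chosen by name alone, as every probe whose target name contains MUDR, and they are MUDR-TIRA (A_92_P012404), MUDRA (A_92_P031891), MUDRA-21 (A_92_P019862) and MUDRB (A_92_P034510). Each probe has 1 spot on an array. The samples were RNA from 1.5 mm whole anthers of field-grown maize in 4 groups: ms23 mutants (6 samples), fertile siblings of the ms23 mutants (2 samples), ms32 mutants (6 samples) and fertile siblings of the ms32 mutants (2 samples). The labels used here give no allele, no inbred background and no treatment other than growth in the field. Both mutants are male sterile, and ms23 and ms32 encode basic helix-loop-helix factors needed for the tapetum, the anther layer that feeds the developing pollen.

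MuDR is the autonomous member of its family, which means that it encodes what Mutator elements need to move. It carries a pair of genes that are transcribed towards each other. The gene mudrA encodes MURA, the transposase, which binds the terminal inverted repeats of Mutator elements, and mudrB encodes MURB, a helper protein linked to new insertions. The promoter of each gene lies in the terminal inverted repeat beside it, TIRA for mudrA and TIRB for mudrB. Mutator activity can be lost when the element is silenced, with DNA methylation of the repeats. The meaning of the suffix in MUDRA-21 and the place of each probe on the element are not given in the sources used here. A probe reads the summed RNA of all copies that match it, so copies and related elements were not told apart.

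The 16 samples were read on 8 arrays with 2 dyes, on 2 slides of 4 arrays. Slide 1 held 4 arrays that set ms23 mutants directly against ms32 mutants, and slide 2 held 2 arrays of each mutant against its fertile sibling, all in dye-swapped pairs. Both arrays of a pair carry the same replicate number, so the 6 samples of a mutant stand for 3 replicate numbers and the 2 samples of a sibling group for 1, each read in both dyes. The series text speaks of 2 biological replicates a comparison, so the p-values measure the spread between arrays, which may be technical. Replicates 1 and 2 of the mutants were on slide 1, and replicate 3 and all siblings on slide 2, so for the mutants replicate 3 and its slide cannot be told apart. Median spot intensities of the samples ran between 94 and 232.25, and 81.2% to 94.8% of probes were well above background. All 4 MuDR probes passed the filter on dim probes, were well above background in all 16 samples and were saturated in none. Probes with a name from the lists for RNA-directed silencing and for other transposons numbered 0, and of the tissue markers only am1, a gene needed for meiosis, was named, with 3 probes well above background in all 16 samples. No probe name matched ms23 or ms32, so the mutated genes themselves were not analysed here.

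In the direct comparison of the mutants, 3 of the 4 probes were lower in ms23 anthers, by 4.99-fold for MUDR-TIRA, 2.01-fold for MUDRB and 1.70-fold for MUDRA-21, while 11.1% of all probes were called lower there. Of the 4, 0 passed the test between a mutant and its own sibling, where 1.31% of all probes passed in ms23 and 0.49% in ms32. MUDR-TIRA was also called lower in fertile siblings of the ms23 family than in those of the ms32 family. That ratio was not measured on an array but linked through different replicates of the mutants. Of these 4 calls, the 1 for MUDR-TIRA between the mutants was kept under all 22 alternatives run.

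MUDR-TIRA, named for the repeat that holds the mudrA promoter, had spot intensities of 120.5, 179 and 283 (lowest, median and highest) in the 6 ms23 mutant samples and of 159 and 119.5 in the ms23 siblings. It had 1078, 1516 and 3626 in the 6 ms32 mutant samples and 3031 and 2852 in the ms32 siblings. The negative control spots had medians between 39.5 and 44 in the same arrays, and the offset of 50 added to every spot pulls the ratios of dim spots towards 0. On the scale of normalized log2 intensity, with both dyes of a replicate averaged first, the level was 7.76 ± 0.576 in ms23 mutants (mean and SD, n = 3 replicate numbers) and 7.60 in ms23 siblings (1 replicate number, no SD). It was 10.49 ± 0.207 in ms32 mutants (n = 3) and 11.56 in ms32 siblings. The ms32 siblings were thus highest, the ms32 mutants next, and the ms23 mutants and ms23 siblings lowest. In that last pair the ranges overlapped over both slides but not on slide 2, the only one with siblings, where the mutants lay at 7.13 and 7.20 and the siblings at 7.48 and 7.72.

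MUDRA, named for the transposase gene, had overlapping samples in both mutants. Its spot intensities were 107, 161.5 and 209 in ms23 mutants and 136 and 137 in ms23 siblings. They were 99, 206 and 370 in ms32 mutants and 95 and 148.5 in ms32 siblings. The normalized levels averaged 7.47 ± 0.128 in ms23 mutants and 7.61 in ms23 siblings, and 7.60 ± 0.263 in ms32 mutants and 7.17 in ms32 siblings (SD over 3 replicate numbers, and 1 replicate number for each sibling group). From high to low, the order of these averages was ms23 siblings, ms32 mutants, ms23 mutants and ms32 siblings. The samples of neighbours in it overlapped, taken over both slides. On slide 2, the only one with siblings, ms23 mutants averaged 7.38 and ms23 siblings 7.61, and ms32 mutants 7.37 and ms32 siblings 7.17.

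MUDRA-21, also named for the transposase gene, had spot intensities of 177, 330.25 and 530.5 in ms23 mutants and of 233 and 148 in ms23 siblings. In ms32 mutants they were 294, 1007 and 1317.5, and in ms32 siblings 383 and 507. The normalized levels averaged 8.53 ± 0.490 in ms23 mutants, 8.04 in ms23 siblings, 9.42 ± 0.364 in ms32 mutants and 8.88 in ms32 siblings (SD over 3 replicate numbers of each mutant). From high to low, the order of these averages was ms32 mutants, ms32 siblings, ms23 mutants and ms23 siblings. The samples of neighbours overlapped over both slides. On slide 2, the only one with siblings, ms23 mutants averaged 7.97 and ms23 siblings 8.04, and ms32 mutants 9.13 and ms32 siblings 8.88. The ms23 mutants overlapped the ms32 mutants across slides but lay below them within each. They were at 8.65 to 9.08 against 9.30 to 10.03 on slide 1, and at 7.62 and 8.31 against 8.37 and 9.90 on slide 2. On slide 2 the ms23 and ms32 mutants were on different arrays, and the share of all probes with such an order was not computed.

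MUDRB, named for the gene of the helper protein, had spot intensities of 182, 340.25 and 485 in ms23 mutants and of 210 and 242.5 in ms23 siblings. In ms32 mutants they were 598.5, 978.25 and 1404, and in ms32 siblings 489.5 and 720.5. The normalized levels averaged 8.53 ± 0.264 in ms23 mutants, 8.34 in ms23 siblings, 9.59 ± 0.308 in ms32 mutants and 9.27 in ms32 siblings (SD over 3 replicate numbers of each mutant). By these averages, ms32 mutants were highest, then ms32 siblings, ms23 mutants and ms23 siblings. On slide 2, the only one with siblings, ms23 mutants averaged 8.32 and ms23 siblings 8.34, and ms32 mutants 9.49 and ms32 siblings 9.27. Every ms23 family sample lay below every ms32 family sample. The nearest were close and on different slides, at 8.96 (ms23 mutant, slide 1) and 9.01 (ms32 sibling, slide 2). The share of all probes with such an order was not computed. Mutants and siblings within a family overlapped.

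**Figure D1:**
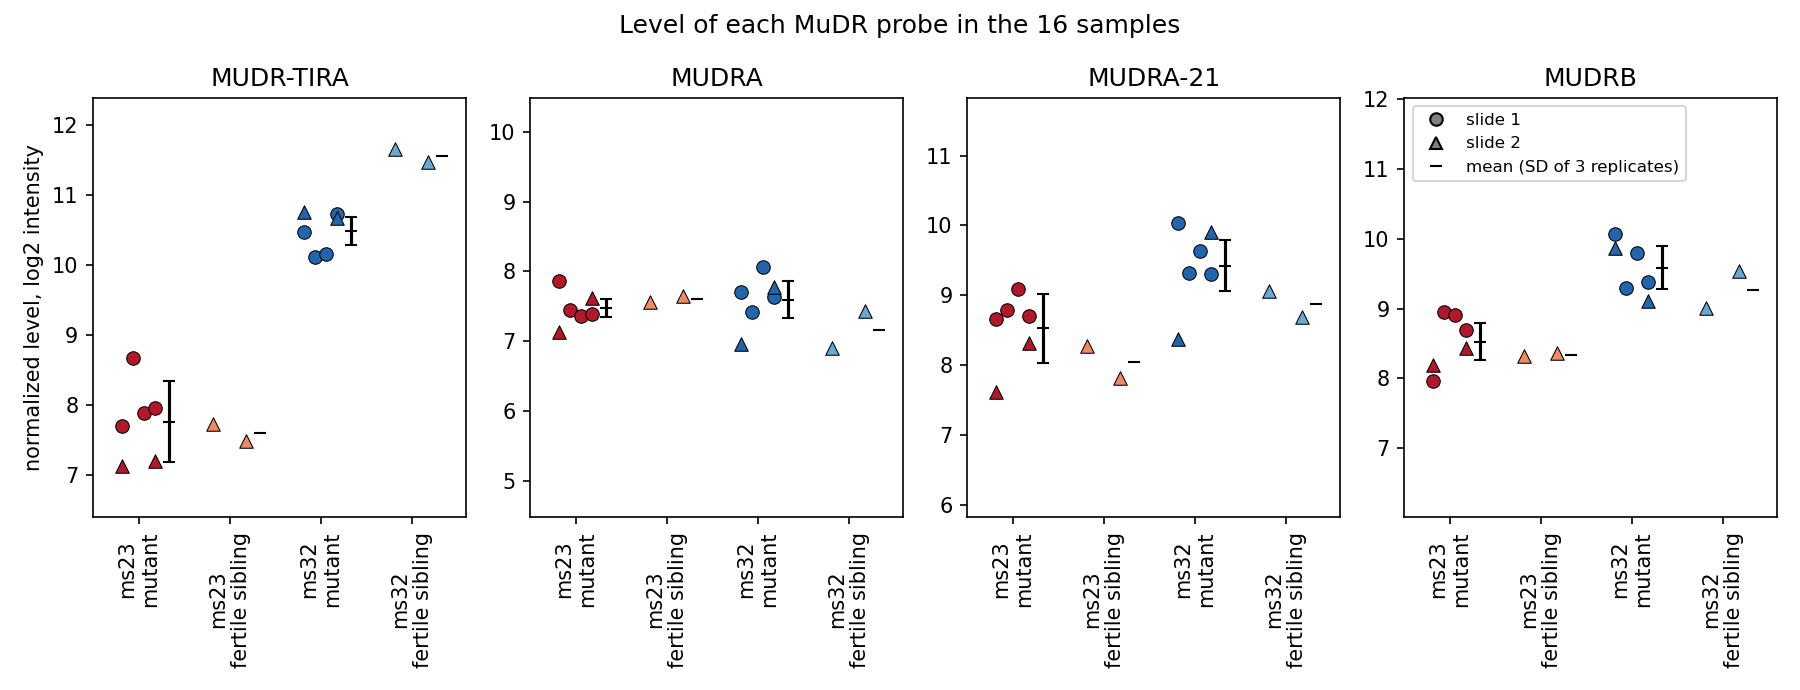
Normalized level (log2 intensity) of each MuDR probe in the 16 samples, by group, with circles for slide 1, triangles for slide 2, and bars for the mean, with the SD over 3 replicate numbers for the mutants (dyes averaged first; siblings have 1 replicate number). Each panel has its own axis, of equal length, and probes are not compared in level. MUDR-TIRA lies between 7.13 and 8.67 in ms23 mutants and between 10.12 and 10.76 in ms32 mutants.

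All 6 ms23 mutant levels were below all 6 ms32 mutant levels for MUDR-TIRA and MUDRB, an ordering that 3.68% of the probes measured in all these samples shared. Both ms23 sibling levels were below both ms32 sibling levels for MUDR-TIRA, MUDRA-21 and MUDRB, as for 23% of probes. Within the ms23 mutants, MUDR-TIRA lay between 7.69 and 8.67 in the 4 samples of slide 1. In the 2 samples of slide 2 it lay between 7.13 and 7.20, with no overlap. The share of all probes with such a difference between slides was not computed, so it cannot be called particular to MUDR-TIRA. In whole anthers, fewer cells that make a transcript and less of it per cell cannot be told apart.

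The direct arrays asked how the sterile anthers of the 2 mutants differ. The mutants come from different families, so in this comparison mutation and family cannot be told apart. The log2 ratio of MUDR-TIRA, ms23 mutant over ms32 mutant, was −2.59, −2.47, −2.16 and −2.06 on the 4 arrays, and that of MUDRB was −1.15, −1.83, −0.61 and −0.43. For MUDRA-21 it was −0.95, −0.98, −0.61 and −0.52, and for MUDRA −0.34, −0.20, −0.03 and −0.18. All 4 probes were therefore below 0 on all 4 arrays, which 20.1% of probes were, though from the scanner's processed signals MUDRA was 0.18 on slide 1 array 3. The dye-swapped pair of replicate 1 gave means of −2.53 for MUDR-TIRA, −0.27 for MUDRA, −0.96 for MUDRA-21 and −1.49 for MUDRB, and the pair of replicate 2 gave −2.11, −0.10, −0.56 and −0.52 in the same order. Each probe was thus nearer to 0 in replicate 2, and MUDRB most of all.

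In the model fitted with limma to all probes, with p-values adjusted by Benjamini and Hochberg's method, 3 of the 4 MuDR probes were called lower at an adjusted p under 0.05, against 11.1% of all probes tested. MUDR-TIRA had a log2 ratio of −2.32 (SE 0.104, 95% interval −2.57 to −2.07, adjusted p = 0.000105), and 0.820% of probes had a ratio as low. MUDRB had −1.00 (SE 0.233, interval −1.58 to −0.43, adjusted p = 0.032), with 4.02% of probes as low, and MUDRA-21 −0.76 (SE 0.173, interval −1.19 to −0.34, adjusted p = 0.0295), with 6.29% as low. MUDRA did not pass, at −0.19 (SE 0.176, interval −0.62 to 0.24, adjusted p = 0.524). The median over the 4 was −0.88, beside 0.01 over all probes, whose quartiles were −0.19 and 0.18. Lower calls made up 53.8% of all calls in this comparison, and 70.9% when ratios were median-centred in place of loess.

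The calls of MUDRA-21 and MUDRB were not kept under every removal of a single array. Both were lost when array 1, 2 or 3 of slide 1 was left out, and when array 3 or 4 of slide 2 was, with limma's adjusted p between 0.0594 and 0.107 for MUDRA-21 and between 0.0524 and 0.11 for MUDRB. Without slide 1 array 2, MUDRB had a log2 ratio of −0.70. Arrays 3 and 4 of slide 2 hold no ratio between the mutants. Without either, the log2 ratios stayed at −0.76 for MUDRA-21 and −1.00 for MUDRB. Averaging each dye-swapped pair into 1 replicate kept the call of MUDR-TIRA (adjusted p = 0.0155) and ended those of MUDRA-21 (adjusted p = 0.0672) and MUDRB (adjusted p = 0.131).

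**Figure D2:**
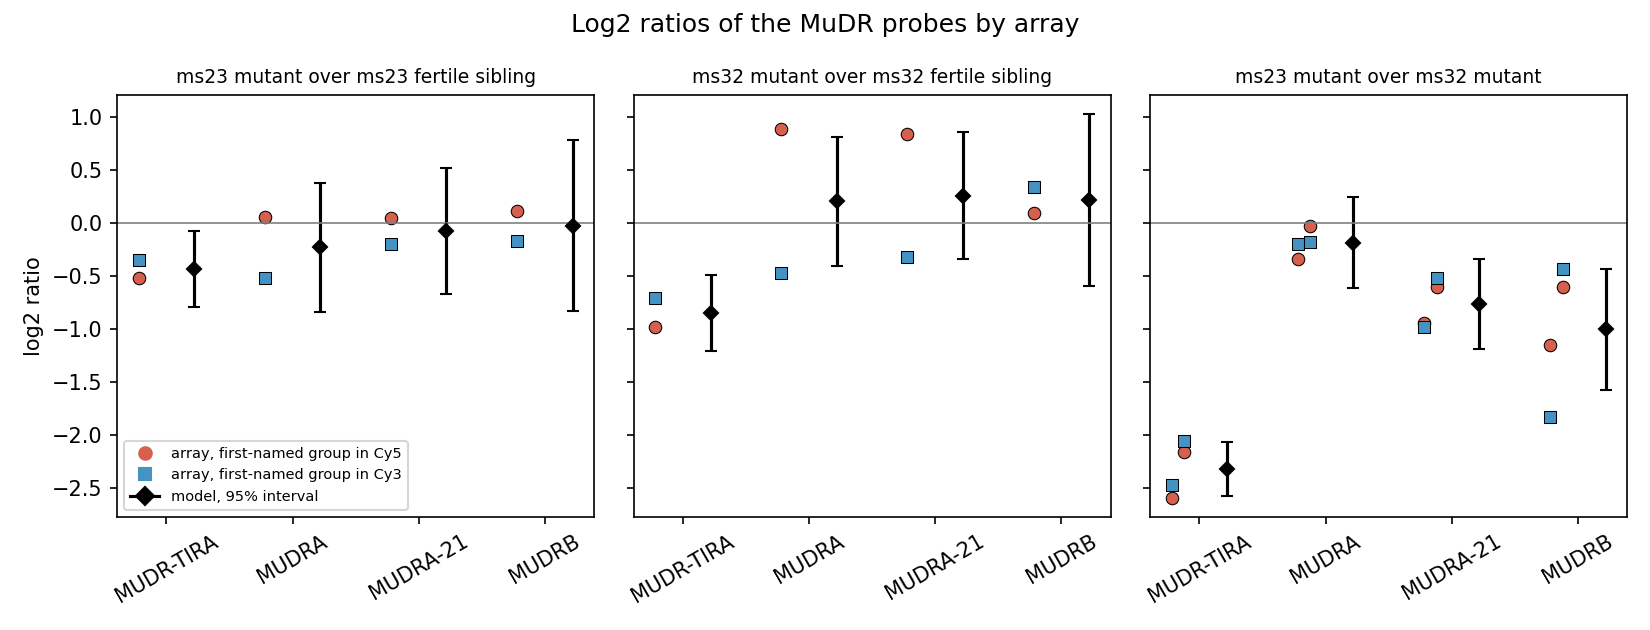
Log2 ratios of the 4 MuDR probes in the 3 direct comparisons; circles are arrays with the first-named group in Cy5, squares arrays with it in Cy3, and diamonds the model estimate with its 95% interval. MUDR-TIRA is below 0 on all 8 arrays, and the arrays of ms32 mutants against siblings lie on both sides of 0 for MUDRA and MUDRA-21.

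Mutants were set against fertile siblings of their own family to ask what the sterility mutation changes. For ms23, the log2 ratio of MUDR-TIRA, mutant over sibling, was −0.52 and −0.35 on the 2 arrays, and the model gave −0.44 (SE 0.147, interval −0.80 to −0.08, limma adjusted p = 0.309). For ms32, the arrays gave −0.98 and −0.71 and the model −0.85 (SE 0.147, interval −1.21 to −0.49, limma adjusted p = 0.126). MUDR-TIRA was thus below 0 on both arrays in each family, as were 25.5% of probes in ms23 and 22.1% in ms32. On the level scale, both slide 2 mutants were below both siblings for MUDR-TIRA in each family, as were 15% of probes in ms23 and 9.6% in ms32, and the other 3 probes met this in neither.

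The other 3 probes had model ratios that were negative in ms23 and positive in ms32, all with intervals that spanned both signs. Their single arrays differed in sign within a family, except for MUDRB in ms32. MUDRA, mutant over sibling, gave 0.06 and −0.52 in ms23 and 0.89 and −0.47 in ms32, and MUDRA-21 gave 0.04 and −0.19 in ms23 and 0.84 and −0.32 in ms32. On all 4 of those arrays the sample in Cy5 was the higher for both probes, and the model's dye term, Cy5 over Cy3, was 0.24 for MUDRA and 0.17 for MUDRA-21, against −0.08 for MUDR-TIRA and 0.07 for MUDRB. MUDRB gave 0.12 and −0.17 in ms23 and 0.10 and 0.34 in ms32. The model ratios in ms23 were −0.23 for MUDRA (interval −0.84 to 0.38), −0.08 for MUDRA-21 (−0.67 to 0.52) and −0.02 for MUDRB (−0.83 to 0.79). In ms32 they were 0.21 for MUDRA (−0.40 to 0.82), 0.26 for MUDRA-21 (−0.34 to 0.86) and 0.22 for MUDRB (−0.59 to 1.03).

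Of the 4 MuDR probes, 0 were called between ms23 mutants and siblings by limma, where 1.31% of all probes were, and 0 between ms32 mutants and siblings, where 0.49% were. At an unadjusted p under 0.05, 1 of 4, MUDR-TIRA, was lower in each family, beside 6.26% of all probes in ms23 and 4.87% in ms32. The median over the 4 was −0.15 in ms23 and 0.21 in ms32, beside −0.00 and 0.00 over all probes.

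Whether the mutations act differently on these transcripts was tested as the difference of the 2 ratios, ms23 family minus ms32 family. It was 0.41 for MUDR-TIRA (interval −0.10 to 0.92, limma adjusted p = 0.956), −0.44 for MUDRA (−1.30 to 0.42), −0.33 for MUDRA-21 (−1.18 to 0.51) and −0.24 for MUDRB (−1.39 to 0.90). Of the 4 differences 0 passed, beside 0.03% of all probes, and 0 of 4 had an unadjusted p under 0.05, beside 5.68% of all probes.

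**Figure D3:**
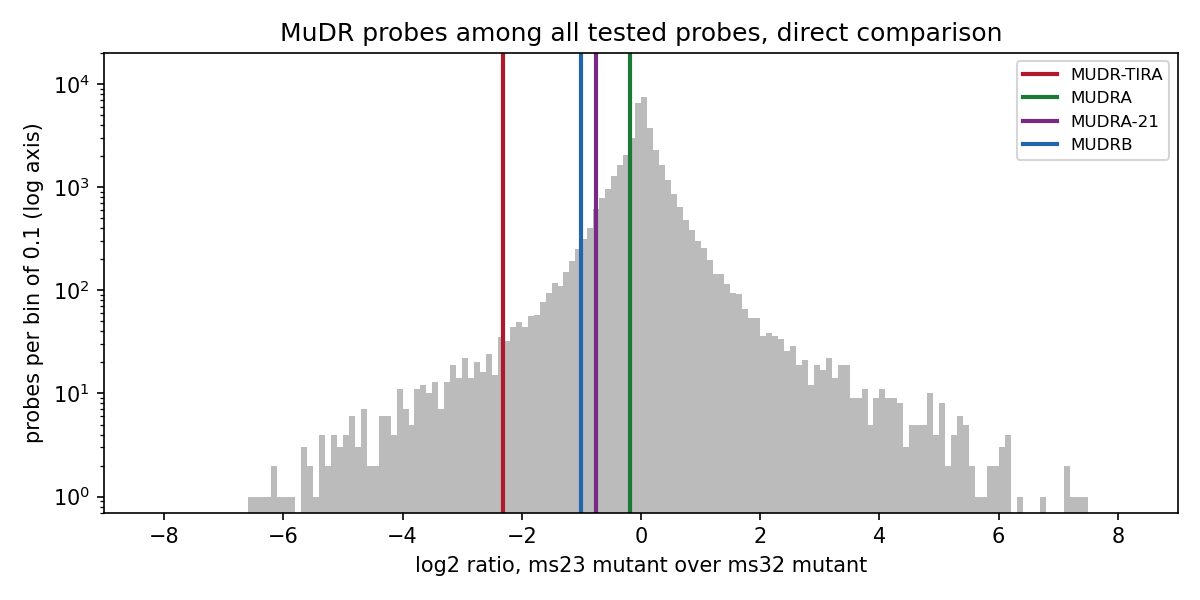
Distribution of the model log2 ratios of all tested probes in the direct comparison of the mutants, with a line for each MuDR probe. MUDR-TIRA at −2.32 in ms23 mutants over ms32 mutants has 0.820% of probes as low, MUDRB at −1.00 has 4.02% and MUDRA-21 at −0.76 has 6.29%.

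No array set the fertile siblings of the 2 families side by side, so their ratio was linked through the mutants, from all 8 arrays. The direct ratio came from mutant replicates 1 and 2 on slide 1, and the sibling ratios from replicate 3 on slide 2. The link takes these replicates as equal, so its SE and interval leave out a difference between the slides. MUDR-TIRA levels averaged 8.05 on slide 1 and 7.16 on slide 2 in ms23 mutants, and 10.37 and 10.72 in ms32 mutants. Each sibling group had 1 replicate number. MUDR-TIRA in ms23 siblings over ms32 siblings was −2.73 (SE 0.232, interval −3.30 to −2.16, a 6.64-fold lower signal, limma adjusted p = 0.00663). It was the 1 of 4 called, beside 2.07% of all probes called in either direction. The call was lost when array 3 or array 4 of slide 2 was left out (adjusted p = 0.066 and 0.0641), and with dye-swapped pairs averaged (adjusted p = 0.144). The linked ratio was 0.25 for MUDRA (interval −0.71 to 1.21), −0.43 for MUDRA-21 (−1.38 to 0.52) and −0.76 for MUDRB (−2.04 to 0.52), and none of these passed.

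The levels on slide 2 give a reading of ms23 against ms32, in mutants and siblings, from arrays other than the direct ones, though between arrays. It was chosen after values were seen and is given with no test. The log2 level of ms23 mutants minus that of ms32 mutants on that slide was −3.55 for MUDR-TIRA, 0.00 for MUDRA, −1.17 for MUDRA-21 and −1.17 for MUDRB. For ms23 siblings minus ms32 siblings it was −3.96, 0.44, −0.83 and −0.93 in the same order. MUDR-TIRA, MUDRA-21 and MUDRB thus had the sign of the direct comparison in both sterile and fertile anthers. So did 7598 of the 8227 probes called in the direct comparison (92.4%), mutants against mutants, and the share for siblings was not computed. In size, MUDR-TIRA differed between the readings. Its slide 2 difference between mutants lay outside the interval of the direct ratio (−2.57 to −2.07). Its difference between siblings lay outside that of the linked ratio (−3.30 to −2.16).

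The probes most like each MuDR probe were taken by the root mean square difference of log2 ratios over the 8 arrays, among 38787 probes. For MUDR-TIRA they were TC309693 at 0.266, TC300574 at 0.340, TC299377 at 0.351, TC281035 at 0.370 and TC302395 at 0.388. The nearest, TC309693, had a log2 ratio of −0.39 in ms23 mutants over siblings, −0.56 in ms32 mutants over siblings and −2.16 in ms23 mutants over ms32 mutants (limma adjusted p = 0.000139). TC300574, TC281035 and TC302395 were well above background in only 12, 12 and 11 of the 16 samples, against all 16 for MUDR-TIRA, TC309693 and TC299377. Their target names are contig numbers with no gene name in the sources used here.

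For MUDRA the 3 nearest were AI622043 at 0.188, TC309292 at 0.192 and AI649556 at 0.200. For MUDRA-21 they were TC307647 at 0.205, TC303647 at 0.207 and TC305016 at 0.226, and for MUDRB TC301883 and TC280544, both at 0.251, and TC298595 at 0.260. No MuDR probe was among the nearest of another. Between MuDR probes the same measure was 0.441 for MUDRA with MUDRA-21, 0.469 for MUDRA-21 with MUDRB, 0.799 for MUDRA with MUDRB, and 1.13, 1.30 and 1.67 for MUDR-TIRA with MUDRB, MUDRA-21 and MUDRA. The probes of the transposase and helper genes were thus nearer to each other than any of them was to MUDR-TIRA, and these differences between probes were not tested.

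**Figure D4:**
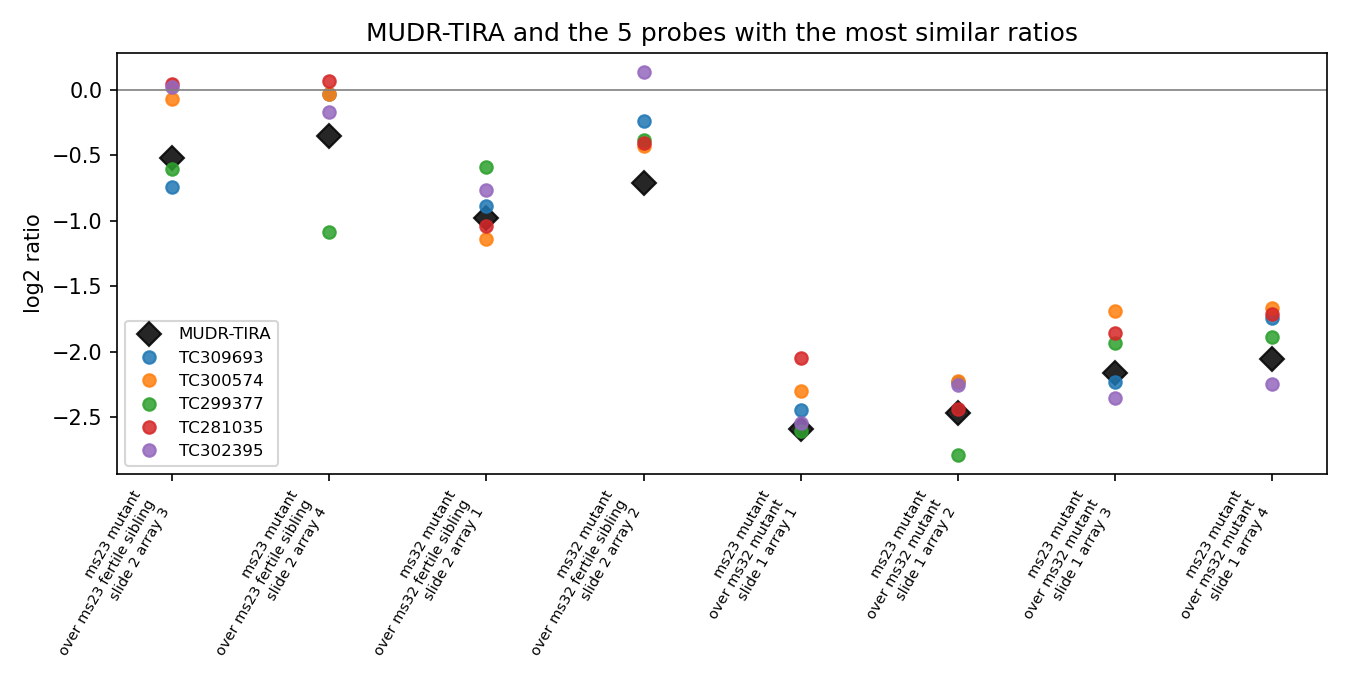
Log2 ratios of MUDR-TIRA (diamonds) and its 5 nearest probes (circles) on each of the 8 arrays. The 4 arrays of ms23 mutants over ms32 mutants, at the right, hold the low ratios, between −2.59 and −2.06 for MUDR-TIRA.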

How the data were processed

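Spot and local background intensities were deposited as scanner output of Agilent Feature Extraction 10.5.1.1 (array design 016047), per the file headers; the submitters' processing notes also name limma. A deposited table of processed intensity values per sample (column medians 122.4 to 122.45, correlation with scanner signals 0.969 to 0.981 on the log2 scale) served as an alternative; how it was normalized was not given in the sources used here. Here limma 3.58.1 (with statmod 1.5.0, in R 4.3.3) was run on the median spot signals, which were background-corrected by normexp (offset 50) and loess-normalized within arrays; 1417 control spots and outlier flags had weight 0. A probe was kept where 50% or more of some group's samples were well above background (39981 of 42034). The deposited marks for background, saturation and outliers are the scanner software's, per the file headers. One model over the 8 arrays, with all ratios turned to mutant over sibling or ms23 over ms32 and a dye term per probe, gave every ratio (4 residual degrees of freedom), and p-values were adjusted over all probes. The code was tested on simulated data. Levels are per-dye log2 intensities after Aquantile normalization; the number of arrays limits their precision. The probes named are the 4 MuDR probes, the 5 nearest to MUDR-TIRA and the 3 nearest to each other one. The members and lists were chosen with earlier results of these data known. Each array was counted singly in the main model. Arrays that share replicate numbers had a correlation of −0.277 between their deviations. This value rests on few replicate numbers and cannot show that dye swaps of a replicate are independent. The replicate block is an alternative, as are normalization, background, filter, dye term, variance and leave-one-out settings.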

Additional observations from a re-analysis of the deposited data

How the results depend on the processing

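MUDR-TIRA in ms23 mutants over ms32 mutants was called in all 22 alternatives, with log2 ratios between −2.68 and −2.07 and adjusted p between 1.16e-05 and 0.0155. The call of MUDRA-21 was lost in 7 of 22 and that of MUDRB in 9 of 22. With scaling between arrays the ratios were −0.69 (MUDRA-21) and −0.94 (MUDRB), and with pairs averaged −0.76 and −1.00; MUDRB was also not called at −1.00 with a dye term for each slide and with slide 1 alone. Leave-one-out ratios ran between −0.93 and −0.62 for MUDRA-21 and between −1.26 and −0.70 for MUDRB. MUDR-TIRA between the fertile siblings was not called at −2.53 with scaling and at −2.73 with averaging, and ran between −2.83 and −2.64 with single arrays left out. The cause of these losses was not tested. Averaging and leaving out arrays lower the number of arrays, while scaling and the dye term for each slide keep them all.

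No ratio that changed sign had been called. Median centring gave 0.17 for MUDRA-21 and 0.28 for MUDRB in ms23 mutants over siblings, 0.02 for MUDRB in the difference of the effects and −0.07 for MUDRA between siblings; MUDRB in ms23 was 0.04 from processed signals and 0.00 from the deposited table. With single arrays left out, MUDRB in ms23 ran between −0.12 and 0.07. In ms32, MUDRA ran between −0.37 and 0.79, MUDRA-21 between −0.29 and 0.81 and MUDRB between −0.03 and 0.47. The difference of the effects ran between −1.02 and 0.14 for MUDRA, −0.88 and 0.22 for MUDRA-21 and −0.49 and 0.01 for MUDRB, and the sibling ratio between −0.33 and 0.83 for MUDRA and −0.98 and 0.12 for MUDRA-21.

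Over all probes, 525 were called in ms23 mutants over siblings, against 928 with scaling and between 48 and 531 with single arrays left out. In ms32, 196 were called, against 298 with an offset of 10, 121 from the deposited table, 129 with a dye term for each slide, 310 with trend and robust variances and between 67 and 140 with single arrays left out. Slide 2 alone gave 0 in each family, with 4463 probes in ms23 and 3057 in ms32 at an unadjusted p under 0.05. In the direct comparison 8227 were called, against between 4459 and 8058 with single arrays left out. The replicate block with the estimated correlation gave 1410 calls in ms23 and 431 in ms32, and the replicate block by averaging gave 32, 0 and, in the direct comparison, 4415; averaging left 3375 probes in ms32 at an unadjusted p under 0.05. With the estimated correlation no MuDR call changed, and MUDR-TIRA in ms32 mutants over siblings had an adjusted p of 0.0668. Of 16 group levels, 14 moved by less than 1 SD between samples (dye swaps counted singly) under each alternative; MUDRA and MUDRB in the ms23 siblings moved by more.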
